A study of Mus musculus with 12 samples.

Results

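Cytochrome P450 genes encode haem monooxygenases, enzymes that insert an oxygen atom into drugs, steroids, fatty acids, vitamins and other lipids. Microsomal members take electrons from cytochrome P450 reductase and cytochrome b5, and mitochondrial members take them from ferredoxin. In hepatocytes the drug-metabolising members are switched on by the nuclear receptors CAR and PXR and by the aryl hydrocarbon receptor, most of them in the cells around the central vein, and several follow the sex-specific rhythm of growth hormone. The genes described here are all those with a symbol of the form Cyp, number, letter, except Cyp4a10, Cyp7a1, Cyp7b1, Cyp8b1 and Cyp27a1, that had at least 1 probe set annotated to that gene alone. There were 62 of them, with 73 probe sets, among 17097 genes with such a probe set.

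The values come from livers of male mice of 4 groups, with 3 tissue extracts per group, each extract on its own expression array. Wild-type mice and mice with a knockout of Pml, the gene of the scaffold protein of nuclear bodies, were fed for 20 weeks, with fat supplying 10% (low-fat) or 60% (high-fat) of the calories, and had no food for 8 hours before the livers were taken. Each group held 8 mice, and the labels do not say that every extract came from a mouse of its own, so p-values measure only the spread between these extracts. Strain and age are not given in the sources used here, and the labels name no promoter or cell type that restricts the knockout.

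The labels and the tissue were checked first. Pml signals ran from 4.92 to 5.40 in wild-type and from 3.04 to 3.82 in knockout extracts, on the log2 scale on which all signals are given here. Array medians lay between 3.936 and 3.996, and any pair of arrays correlated at 0.986 or higher. Mean signals of the 7 hepatocyte markers ran from 12.30 to 12.62 over the 12 arrays. Markers of other cells varied more. The 14 macrophage and Kupffer cell markers averaged 4.77 in knockout low-fat extract 2 and 5.31 in knockout high-fat extract 3, against 5.79 to 6.62 in the other extracts. The 13 endothelial markers averaged 5.92, 5.82 and 5.80 in knockout low-fat extract 2, knockout high-fat extract 2 and knockout high-fat extract 3, against 6.43 to 6.91 elsewhere. Among these markers Timd4, Fcgr1 and Lyve1 were too dim to be tested. The markers also differed between groups, with 0 called by limma in any comparison. All 12 tested endothelial markers had lower means in knockout than in wild type on both diets (median -0.201 low-fat and -0.525 high-fat, the latter with 5 under an unadjusted p of 0.05). All 12 tested macrophage markers had higher means with high-fat feeding in wild type (median 0.401), and 9 of 12 in knockout (median 0.435). These shifts run beside every genotype and diet comparison of the P450 genes, and their part in the results was not tested. Called changes are given also without the 2 extracts lowest in macrophage markers.

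Of the 62 P450 genes, 39 were bright enough to be tested, which meant a mean above those of the dimmest 40% of genes. The other 23 had mean signals between 2.79 and 4.01, near the floor of the array. Among them were Cyp2b10, the classic target of CAR, Cyp1a1 and Cyp1b1, which the aryl hydrocarbon receptor induces, the vitamin D enzymes Cyp24a1 and Cyp27b1, and Cyp11a1, Cyp11b1 and Cyp11b2, which make steroid hormones in the adrenal gland and gonads. Cyp2b9, Cyp2b13, Cyp3a16, Cyp3a41a and Cyp3a44, known as female-biased in mouse liver, were also dim in these male livers. Not all female-biased members were dim. Of 10 listed, 4 were tested: Cyp2c38, Cyp2c39, Cyp17a1 and Cyp39a1, with means of 8.27, 8.785, 7.435 and 7.324. The brightest P450 probe sets included the ethanol-metabolising Cyp2e1, with means of 13.15 to 13.21 in the 4 groups, and Cyp2f2, Cyp2d26 and the male-biased Cyp2d9.

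Diet moved a few P450 genes, and genotype moved none past the test. A gene was called when its adjusted p from limma, with Benjamini-Hochberg adjustment over the 10258 genes tested, was under 0.05. The high-fat diet changed 3 of the 39 members on the mean of both genotypes (Cyp2c37 rose, Cyp2f2 and Cyp2r1 fell), where 4.56% of all tested genes were called; 11 members and 19.7% of all genes were under an unadjusted p of 0.05. In knockout livers alone it changed 2 members, Cyp2c37, which rose, and Cyp2j9, which fell, where 3.03% of all genes were called; 10 members and 18.3% of all genes were under an unadjusted p of 0.05. In wild-type livers it changed 0 of 39 by limma, 6 being under an unadjusted p of 0.05, where 0.175% of all genes were called and 8.82% were under that unadjusted p. Knockout against wild type gave 0 called members on either diet, 2 members (low-fat) and 4 (high-fat) being under an unadjusted p of 0.05. All genes together were called at 0.00975% in each of those comparisons, and 8.72% (low-fat) and 4.46% (high-fat) of them were under an unadjusted p of 0.05. The mean of both diets gave 0 called members and 2 under an unadjusted p of 0.05, against 0.0195% of all genes called and 7.26% under that unadjusted p. With at most 3 called members in a comparison, no share apart from the background can be read. These are whole-liver RNA samples, in which fewer cells of a type and less RNA per cell cannot be told apart.

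Median differences over the 39 tested members were small. They were -0.075 (log2) for knockout minus wild type on the low-fat diet, 0.008 on the high-fat diet, -0.084 for the high-fat diet in wild type and 0.025 for the high-fat diet in knockout. The medians over all tested genes were between -0.01 and 0.01 in the same comparisons. On the low-fat diet 27 of the 39 members had a lower mean in knockout than in wild type, and on the high-fat diet 17 did.

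**Figure D1:**
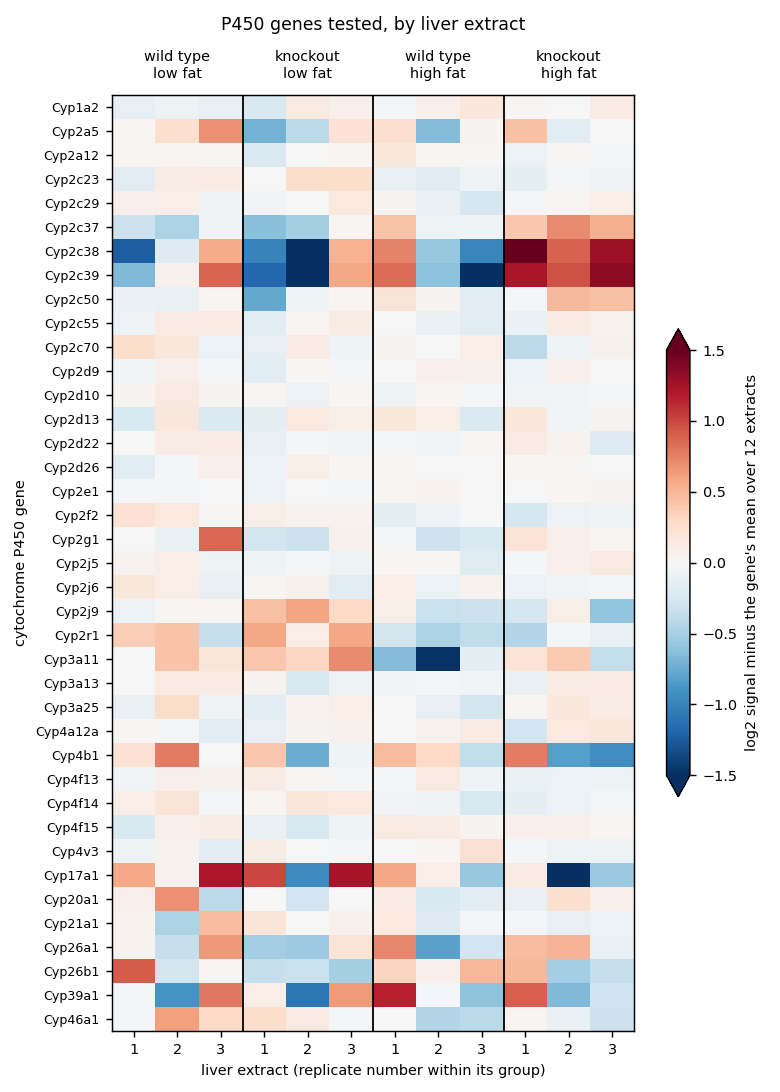
Each row is one of the 39 tested P450 genes and each column a liver extract; colour gives the log2 signal minus that gene's mean over the 12 extracts, cut at 1.5 on both sides. Most rows are pale, while Cyp17a1, Cyp2c38, Cyp2c39, Cyp39a1, Cyp4b1 and Cyp26a1 have the widest spread within groups, and Cyp2c37, Cyp2c38 and Cyp2c39 are high in all 3 knockout extracts on the high-fat diet.

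Cyp2c37, an epoxygenase of arachidonic acid that CAR and PXR induce, was the only member whose rise on the high-fat diet was called with all arrays. Its signals on the low-fat diet were 4.52, 4.36 and 4.78 (wild type) and 4.21, 4.34 and 4.87 (knockout). High-fat values were 5.26, 4.75 and 4.78 (wild type) and 5.24, 5.55 and 5.37 (knockout). All 3 knockout values on the high-fat diet lay above all 3 on the low-fat diet, while the wild-type groups overlapped at their edges. In knockout it rose by 0.91 (log2, 1.88-fold, SE 0.19, limma adjusted p = 0.0272). The mean rise over both genotypes was 0.65 (1.57-fold, SE 0.14, limma adjusted p = 0.018). Its difference in wild type alone was 0.38 (SE 0.19, limma adjusted p = 0.608). The rise in knockout lost its call when knockout low-fat extract 1 or 2 or knockout high-fat extract 2 or 3 was left out, at adjusted p of 0.0962, 0.0789, 0.111 and 0.0728. The mean rise lost it without knockout high-fat extract 2 (0.0523). The rise in knockout was also lost with only the 2 groups compared (0.0765). Without both extracts lowest in macrophage markers the changes were 0.86 and 0.62, at adjusted p of 0.158 and 0.0728. Cyp2c37 was dim for a liver gene, with means of 4.47 to 5.38 against a lowest tested mean of 4.08.

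Cyp2f2, a microsomal enzyme of the periportal hepatocytes that oxidises naphthalene and other small aromatics, fell on the high-fat diet. It read 13.01, 12.94 and 12.80 (wild type) and 12.88, 12.85 and 12.84 (knockout) on the low-fat diet. High-fat values were 12.65, 12.74 and 12.79 (wild type) and 12.53, 12.69 and 12.72 (knockout), so that every high-fat value was lower than every low-fat value. The decrease was small and alike in both genotypes, at -0.19 (SE 0.06) in wild type and -0.21 (SE 0.06) in knockout. On the mean of both genotypes it fell by 0.20 (log2, 1.15-fold, SE 0.04, limma adjusted p = 0.0242). The call was lost without wild-type low-fat extract 1 (0.061), knockout low-fat extract 1 (0.0551), wild-type high-fat extract 1 (0.0598) or wild-type high-fat extract 2 (0.0561), without both macrophage-poor extracts (0.0538), and with no variance trend in the fit (0.0921). The fatty acid and leukotriene hydroxylase Cyp4f14 showed the same separation by diet, with high-fat values of 9.75 to 9.96 below low-fat values of 9.98 to 10.18, and a difference of -0.20 that missed the threshold (SE 0.05, limma adjusted p = 0.0568).

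Cyp2r1 encodes the main vitamin D 25-hydroxylase, which makes the circulating form of the vitamin. Low-fat signals were 6.97, 7.03 and 6.26 (wild type) and 7.18, 6.70 and 7.19 (knockout), and high-fat signals were 6.33, 6.13 and 6.22 (wild type) and 6.17, 6.58 and 6.49 (knockout). The knockout groups did not overlap, and in wild type only the lowest low-fat value reached the high-fat range. On the mean of both genotypes it fell by 0.57 on the high-fat diet (log2, 1.48-fold, SE 0.14, limma adjusted p = 0.0429), with -0.52 in wild type and -0.61 in knockout. Its difference between genotypes on low-fat feeding was 0.27. This call was close to the threshold: it held in only 2 of the 12 fits that left out an extract, those without wild-type low-fat extract 3 (0.00877) or knockout low-fat extract 2 (0.0263), and reached 0.108 in the others. The differences in those fits ran from -0.69 to -0.496. It was also lost with the replicate number as a block (0.0615), with no filter on dim genes (0.0521), with no variance trend (0.0524), with the mean of all probe sets (0.0502) and without both macrophage-poor extracts (-0.67, 0.0505).

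Cyp2j9, an enzyme of the Cyp2j group best known from brain, fell on the high-fat diet in knockout. Low-fat values were 5.11, 5.21 and 5.21 (wild type) and 5.635, 5.788 and 5.495 (knockout). On the high-fat diet they were 5.28, 4.86 and 4.87 (wild type) and 4.94, 5.28 and 4.60 (knockout). Knockout extracts on the low-fat diet were thus above all the other extracts. In knockout the gene fell by 0.70 (log2, 1.62-fold, SE 0.17, limma adjusted p = 0.0465), and in wild type the difference was -0.17 (SE 0.17). On the low-fat diet it was 0.46 higher in knockout than in wild type, with no overlap but a limma adjusted p of 0.502 (SE 0.17). The fall kept its call in only 3 of 12 fits that left out an extract (without knockout low-fat extract 3, wild-type high-fat extract 1 or knockout high-fat extract 2) and reached an adjusted p of 0.14 in the others; its size ran from -0.87 to -0.53. Without both macrophage-poor extracts the difference was -0.46, at an adjusted p of 0.262. The call was also lost with quantile normalization (0.0564), no filter on dim genes (0.0618), no variance trend (0.0511) and only the 2 groups compared (0.127).

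**Figure D2:**
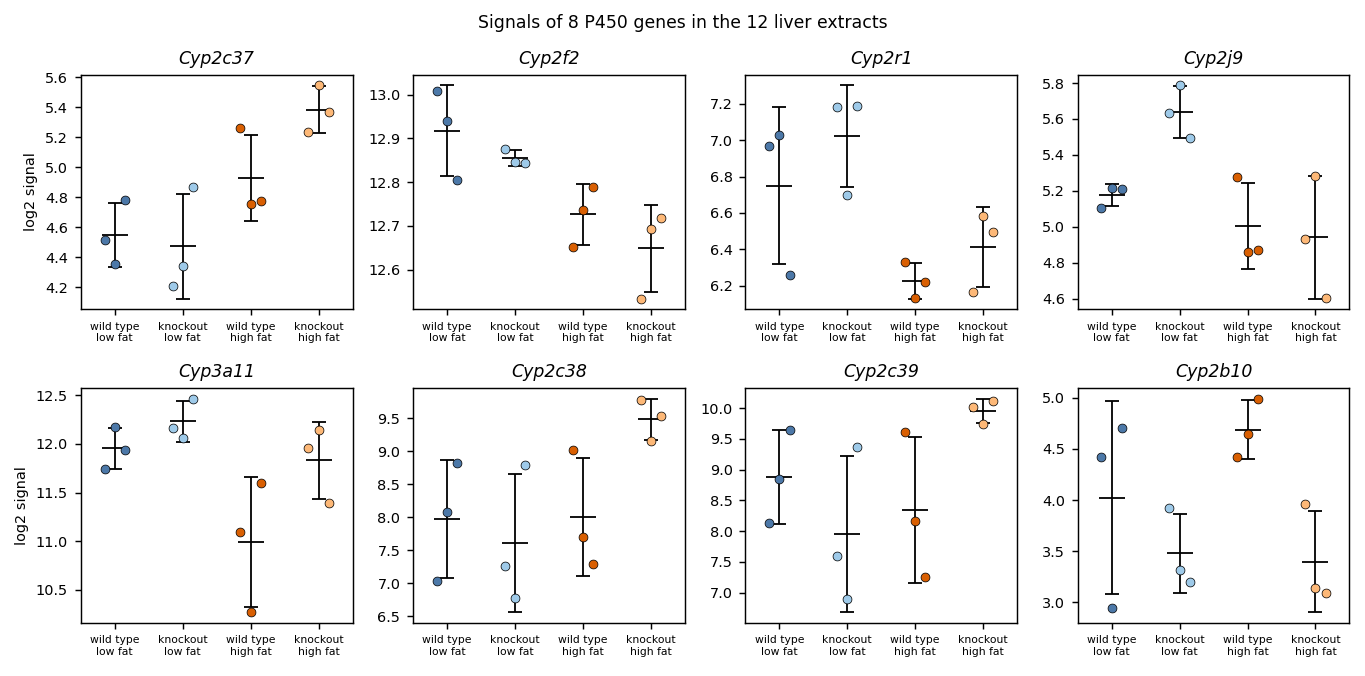
Log2 signal of 8 P450 genes in each liver extract (points), by group, with the group mean and SD (bars, n = 3); each panel has its own vertical range, which does not start at 0. Cyp2c37 is highest in knockout on the high-fat diet, Cyp2f2 is lower in every high-fat extract than in any low-fat one, and Cyp2b10 (not tested, dim) is lower in all 3 knockout than in all 3 wild-type extracts on the high-fat diet.

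The values of the P450 genes induced by CAR and PXR were mostly below wild type in knockout with low-fat feeding and above it with high-fat feeding. Of the 8 measured, 7 were tested (Cyp2a5, Cyp2c29, Cyp2c37, Cyp2c50, Cyp2c55, Cyp3a11 and Cyp3a13). The other, Cyp2b10, was too dim for the test and had lower means in knockout on both diets (-0.545 low-fat, -1.288 high-fat). In knockout against wild type 6 of the 7 were lower on the low-fat diet (median -0.08) and all 7 were higher on the high-fat diet (median 0.21), with 0 called on either diet by limma. Under an unadjusted p of 0.05 there was 1 (low-fat) and there were 2 (high-fat). Over all tested genes 51.5% were higher in knockout on each diet. Both comparisons concern genes chosen with earlier results of these data known. The high-fat diet gave 5 lower of 7 in wild type (median -0.14) and 6 higher of 7 in knockout (median 0.13), the latter with 1 called, Cyp2c37.

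Cyp3a11 is the main mouse counterpart of human CYP3A4, which metabolises many drugs, steroids and bile acids, and it is the standard target of PXR. Its low-fat signals were 11.75, 12.18 and 11.94 (wild type) and 12.16, 12.06 and 12.47 (knockout). On the high-fat diet wild-type extracts read 11.10, 10.27 and 11.60 and knockout extracts 11.96, 12.15 and 11.39. The wild-type high-fat extracts were the low ones: all 3 were under the wild-type low-fat range, and the highest of them passed only the lowest knockout value on the same diet. The difference between diets in wild type was -0.96 (1.95-fold, SE 0.28, limma adjusted p = 0.254) and in knockout -0.40 (1.32-fold, SE 0.28, limma adjusted p = 0.492). Knockout minus wild type was 0.84 on the high-fat diet (1.79-fold, SE 0.28, limma adjusted p = 0.996) and 0.28 on the low-fat diet (SE 0.28, limma adjusted p = 0.824). The means were 0.56 for genotype over both diets (SE 0.20, limma adjusted p = 0.617) and -0.68 for diet over both genotypes (SE 0.20, limma adjusted p = 0.069). None of these passed the test. Cyp3a25, a neighbour of Cyp3a11 with related substrates, read 12.03, 12.17 and 12.12 in knockout and 12.02, 11.90 and 11.74 in wild type on the high-fat diet, a difference of 0.22 without overlap (SE 0.10, limma adjusted p = 0.996). Cyp3a41a was too dim for the test. Wild-type signals ran from 3.465 to 4.003 on the low-fat and from 2.772 to 3.228 on the high-fat diet. Knockout signals ran from 3.81 to 3.878 and from 3.187 to 3.699. With every dim gene added to the fit, the limma adjusted p of the mean difference of Cyp3a41a between diets, -0.56, was 0.0188. All these signals lie near the floor of the array, and the difference is not counted as a call.

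Cyp2b10 was dim. The means of its 3 probe sets over all extracts were 3.45 to 3.90, under the lowest tested mean, although the wild-type high-fat mean of the brightest, 4.685, was above it. The brightest of them, which carries the mark of sequence shared with other transcripts, read 4.42, 2.95 and 4.70 (wild type) and 3.92, 3.31 and 3.19 (knockout) on the low-fat diet. With high-fat feeding they were 4.42, 4.64 and 4.99 (wild type) and 3.96, 3.14 and 3.09 (knockout). Knockout values were all below wild-type values on the high-fat diet, a difference of -1.29 that did not pass when dim genes were added to the fit (SE 0.37, limma adjusted p = 0.978). The other probe sets gave -0.60 and -0.39. Cyp2b10 and Cyp3a11, which share CAR and PXR as regulators, thus had differences of opposite sign on the high-fat diet.

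All 8 measured genes of the Cyp2c subfamily, which oxidise drugs and make epoxides of arachidonic acid, were bright enough to be tested. Cyp2c29, Cyp2c37, Cyp2c50 and Cyp2c55 are also among the CAR and PXR genes above, so these are not separate observations. On the low-fat diet 7 of the 8 were lower in knockout (median -0.11), and on the high-fat diet 7 of the 8 were higher (median 0.21), Cyp2c70 being the exception at -0.19. With the high-fat diet 6 of the 8 were higher in knockout (median 0.30), of which 1 was called, and 3 of the 8 in wild type (median -0.10), of which 0 were called. Of the related Cyp2c50, knockout extracts read 10.08, 10.78 and 10.88 with low-fat and 10.83, 11.33 and 11.28 with high-fat feeding, a difference of 0.57 (SE 0.18, limma adjusted p = 0.12). Cyp2c23, a renal and hepatic epoxygenase, had the opposite sign in knockout, with 11.55, 11.82 and 11.82 on low-fat and 11.41, 11.53 and 11.50 on high-fat feeding, a difference of -0.25 without overlap (SE 0.09, limma adjusted p = 0.141). Cyp2c29, Cyp2c55 and Cyp2c70 differed by no more than 0.19 in any of the 4 comparisons of groups.

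Cyp2c38 and Cyp2c39 had the largest differences of the family. Cyp2c39 is a retinoic acid hydroxylase, and Cyp2c38 makes epoxides of arachidonic acid. Low-fat signals of Cyp2c38 were 7.04, 8.07 and 8.82 (wild type) and 7.27, 6.78 and 8.79 (knockout), and high-fat signals were 9.01, 7.70 and 7.30 (wild type) and 9.77, 9.15 and 9.54 (knockout). Those of Cyp2c39 were 8.13, 8.85 and 9.65 (wild type) and 7.60, 6.90 and 9.36 (knockout) with low-fat feeding. With high-fat feeding they were 9.62, 8.17 and 7.26 (wild type) and 10.01, 9.73 and 10.12 (knockout). For both genes the 3 knockout extracts on the high-fat diet stood above every other extract, and extracts within the remaining groups spread over more than 1 log2 unit. The high-fat diet gave differences of 1.87 (3.67-fold, SE 0.55, limma adjusted p = 0.09) for Cyp2c38 and 2.002 (4.005-fold, SE 0.63, limma adjusted p = 0.107) for Cyp2c39 in knockout, against 0.03 and -0.53 in wild type. Knockout minus wild type on the high-fat diet was 1.48 and 1.61 (SE 0.55 and 0.63, limma adjusted p = 0.996 for both). On the low-fat diet the differences were -0.36 and -0.92. The means were 0.56 and 0.34 for genotype over both diets and 0.95 and 0.74 for diet over both genotypes. None passed the test with all 12 arrays. Without knockout low-fat extract 3, the high one of its group, both passed in knockout, Cyp2c38 at 2.46 (limma adjusted p = 0.0251) and Cyp2c39 at 2.71 (0.0254). In the other 11 fits that left out an extract neither passed, and the differences were smallest without knockout low-fat extract 2, at 1.46 (0.237) and 1.475 (0.273). RefSeq places Cyp2c38 inside the span of Cyp2c39 on chromosome 19, and their sequences are alike, so the signals may not be fully separate measurements.

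**Figure D3:**
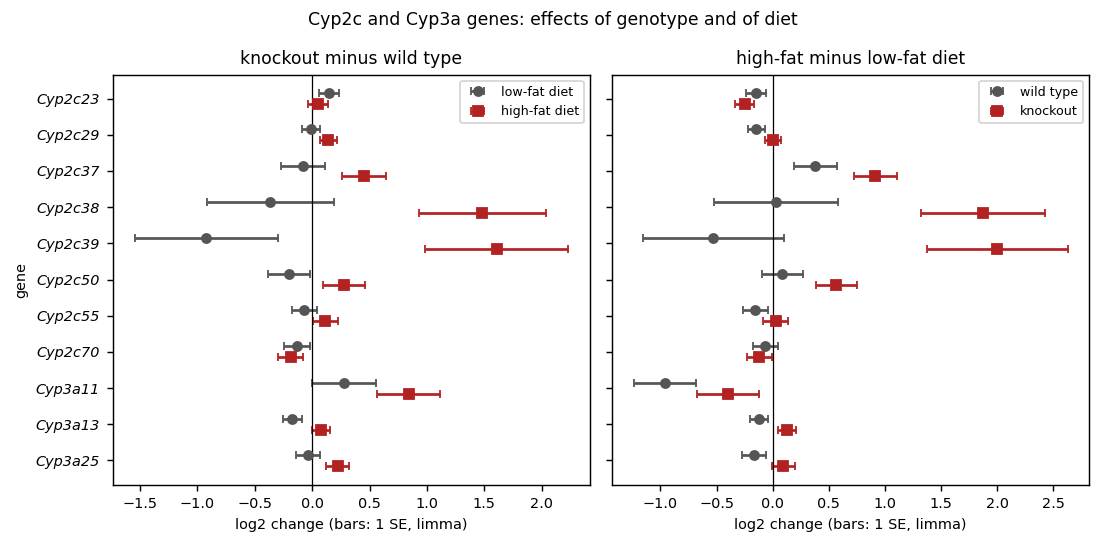
Log2 differences of the 11 tested Cyp2c and Cyp3a genes (points) with 1 SE (bars, limma): knockout minus wild type on each diet at left, the diet difference within each genotype at right. Cyp2c37, Cyp2c38, Cyp2c39 and Cyp2c50 lie right of 0 on the high-fat diet and in knockout; Cyp3a11 lies left of 0 for diet in both genotypes.

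Promoter sequences are shown for Cyp3a11 and for the pairs Cyp2c37 with Cyp2c50 and Cyp2c38 with Cyp2c39, so that each pair can be compared. Of these genes only Cyp2c37 was called with all arrays. The other called members, Cyp2f2, Cyp2r1 and Cyp2j9, are not shown. The sequences are the 250 bases before an annotated start, from RefSeq on GRCm38.p6, read 5′ to 3′ on the gene's strand. The table held 46 of the 62 members, with 53 windows. In Cyp3a11, Cyp2c37 and Cyp2c50 capitals mark CAAAGTNCA, the letters of an element read by HNF4 alpha, the receptor that sets hepatocyte identity. In Cyp2c38 and Cyp2c39 capitals mark the aligned bases at which the pair differs.
Cyp3a11 (minus strand, chr5:145879855-145880104): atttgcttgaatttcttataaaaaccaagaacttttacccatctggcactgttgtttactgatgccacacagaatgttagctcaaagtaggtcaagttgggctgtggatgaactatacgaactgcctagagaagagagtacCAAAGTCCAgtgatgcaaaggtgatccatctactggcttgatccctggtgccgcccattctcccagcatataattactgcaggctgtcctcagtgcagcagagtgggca
Cyp2c37 (plus strand, chr19:39992174-39992423): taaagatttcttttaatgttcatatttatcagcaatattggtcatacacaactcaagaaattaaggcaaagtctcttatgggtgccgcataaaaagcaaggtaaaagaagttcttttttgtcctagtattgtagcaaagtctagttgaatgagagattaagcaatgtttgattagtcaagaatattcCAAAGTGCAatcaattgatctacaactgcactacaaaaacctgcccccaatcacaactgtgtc
Cyp2c50 (plus strand, chr19:40089429-40089678): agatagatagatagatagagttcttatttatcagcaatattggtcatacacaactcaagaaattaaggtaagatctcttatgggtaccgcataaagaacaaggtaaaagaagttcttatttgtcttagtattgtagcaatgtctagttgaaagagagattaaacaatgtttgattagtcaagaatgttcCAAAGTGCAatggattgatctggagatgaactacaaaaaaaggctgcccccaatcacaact
Cyp2c38 (minus strand, chr19:39463076-39463325): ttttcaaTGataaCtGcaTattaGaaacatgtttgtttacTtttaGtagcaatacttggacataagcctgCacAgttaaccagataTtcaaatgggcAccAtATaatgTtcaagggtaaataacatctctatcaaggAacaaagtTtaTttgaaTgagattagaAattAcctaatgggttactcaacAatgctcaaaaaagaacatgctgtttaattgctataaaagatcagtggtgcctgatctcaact
Cyp2c39 (plus strand, chr19:39510572-39510821): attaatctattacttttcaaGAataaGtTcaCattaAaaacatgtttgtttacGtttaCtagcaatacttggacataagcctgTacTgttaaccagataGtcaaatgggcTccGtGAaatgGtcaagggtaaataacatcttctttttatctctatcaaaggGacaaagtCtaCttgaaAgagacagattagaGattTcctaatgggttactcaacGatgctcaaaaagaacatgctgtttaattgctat

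The CAAAGTNCA element begins 109 bases before the start of Cyp3a11, 63 before that of Cyp2c37 and 61 before that of Cyp2c50. Searched on both strands, it occurred in 9 of the 53 member windows (17%), against 392 of all 32851 promoter windows of this length (1.19%). The other 6 members with it were Cyp26a1, Cyp2c70, Cyp2d26, Cyp3a16, Cyp3a41a and Cyp3a44. Of these Cyp2c70 and Cyp2d26 had no called difference and the 3 Cyp3a genes were dim. Most members with the element are Cyp2c or Cyp3a relatives, some with closely similar windows, so the occurrences are not independent. Windows of liver genes alone were not counted. TATAAA, the letters of the TATA box, was in 34% of member windows against 12.4% of all, and AGGTCA, the hexamer read by many nuclear receptors, in 24.5% against 14%. Neither AGGTCA nor TATAAA is contained in CAAAGTNCA, and these motifs were chosen after the values had been seen. The Cyp2c37 and Cyp2c50 windows were identical at 214 of 242 aligned bases (88.4%). Those of Cyp2c38 and Cyp2c39 were identical at 198 of 221 (89.6%). The Cyp2c39 window shown lies before a start inside the gene's annotated span and was printed because it is the closer match; the window before the gene's outermost start matched that of Cyp2c38 at 85.5% of aligned bases. A match of letters is a description of the sequence and no evidence of binding.

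Of the genes induced by the aryl hydrocarbon receptor, only Cyp1a2, which oxidises caffeine and aromatic amines, was tested. It read 11.79, 11.83 and 11.78 in wild type with low-fat and 11.89, 11.99 and 12.07 with high-fat feeding. These groups did not overlap, yet the difference of 0.18 missed the threshold (SE 0.08, limma adjusted p = 0.563). In knockout the diets differed by 0.045. Cyp1a1 and Cyp1b1 stayed at the floor, with group means of 3.584 to 3.801 and of 3.496 to 3.636.

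Fatty acid hydroxylases and eicosanoid-forming enzymes were the largest class, with 17 members of which 9 were tested. Cyp2j9 fell on the high-fat diet in knockout, and 0 of the others were called in any comparison. Medians of this class were between -0.08 and 0.01 in the 4 comparisons of groups. Cyp4a12a, the male-biased hydroxylase that makes the vasoconstrictor 20-HETE, had group means of 12.15 to 12.27. Cyp4v3, a fatty acid omega-hydroxylase whose human counterpart is mutated in Bietti crystalline dystrophy, was the third largest negative term in the interaction at -0.22 (SE 0.10, limma adjusted p = 0.852). Its probe set carries the mark of shared sequence. Cyp4b1, a hydroxylase of fatty acids and furans that is abundant in lung, spread most. It read 7.45, 8.02 and 7.23 (wild type) and 7.64, 6.50 and 7.18 (knockout) on the low-fat diet. High-fat values were 7.72, 7.54 and 6.87 (wild type) and 8.00, 6.42 and 6.31 (knockout). Its lowest 3 values were in knockout low-fat extract 2 and knockout high-fat extracts 2 and 3, the extracts with the lowest endothelial markers; their part in the result was not tested. Its difference between genotypes was -0.46 on each diet.

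Of 7 measured enzymes of steroid and sterol metabolism, 4 were tested and 0 were called. Cyp17a1, the 17-hydroxylase of steroid hormone synthesis, read 8.00, 7.49 and 8.65 (wild type) and 8.44, 6.47 and 8.67 (knockout) on the low-fat diet. Its high-fat values were 8.01, 7.54 and 6.87 (wild type) and 7.58, 4.63 and 6.88 (knockout). The groups overlapped in every comparison. The high-fat diet gave -0.57 in wild type and -1.497 in knockout (2.82-fold, SE 0.70, limma adjusted p = 0.277), where extract 2 was the lowest on both diets. Knockout minus wild type was -1.11 with high-fat feeding, and -0.65 on the mean of both diets (SE 0.49, limma adjusted p = 0.806). Cyp46a1, the cholesterol 24-hydroxylase of neurons, had wild-type means of 4.78 (low-fat) and 4.21 (high-fat), a difference of -0.57 (SE 0.17, limma adjusted p = 0.293). Cyp39a1, the oxysterol 7-alpha-hydroxylase of the bile acid pathway, had nearly equal group means of 7.205 to 7.508 with SDs of 0.817 to 0.902 (n = 3); the diet difference in wild type was 0.23 (SE 0.57).

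Among enzymes of vitamin D and retinoid metabolism, Cyp2r1 was called as described and the retinoic acid hydroxylases Cyp26a1 and Cyp26b1 were not. Cyp26b1 read 5.61, 4.43 and 4.73 (wild type) and 4.35, 4.38 and 4.21 (knockout) on the low-fat diet, a difference of -0.61 without overlap (SE 0.29, limma adjusted p = 0.588). High-fat signals were 5.022, 4.780 and 5.197 (wild type) and 5.2, 4.19 and 4.35 (knockout), a difference of -0.42, and the mean over both diets was -0.51 (limma adjusted p = 0.665). Its low knockout high-fat values were those of extracts 2 and 3, which were low in endothelial markers. The 3 knockout low-fat values were alike, while endothelial markers averaged 6.91, 5.92 and 6.45 in those extracts. The part of these markers in the result was not tested. Cyp26a1 differed by 0.42 between genotypes on the high-fat diet (SE 0.36, limma adjusted p = 0.996), with groups that overlapped.

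The members also fall into sex-biased and zonal classes. The male-biased Cyp2d9 and Cyp4a12a differed by no more than 0.12 in any of the 4 comparisons of groups. The 4 tested female-biased members, Cyp2c38, Cyp2c39, Cyp17a1 and Cyp39a1, had a median difference of -0.28 between knockout and wild type on the low-fat diet with 0 called. On the high-fat diet they split, Cyp2c38 and Cyp2c39 being higher (1.48 and 1.61) and Cyp17a1 and Cyp39a1 lower (-1.11 and -0.205), again with 0 called. Of 7 tested pericentral members 2 were higher in knockout on the low-fat diet (median -0.02) and 6 on the high-fat diet (median 0.21). Again 0 were called. This list shares members with the CAR and PXR list, Cyp2a5 and Cyp2c37 among them, so it is no separate observation. Cyp2e1, the brightest pericentral member, differed by no more than 0.06 in any of the 4 comparisons. Cyp2a5, the coumarin hydroxylase, was the pericentral member with the largest difference on the low-fat diet, at -0.62 in knockout (SE 0.27, limma adjusted p = 0.558). Its extracts read 11.85, 12.07 and 12.51 (wild type) and 11.10, 11.42 and 12.04 (knockout). The periportal Cyp2f2 is described above.

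Members whose groups did not overlap are counted beside all genes. On the low-fat diet 4 of the 39 members did not overlap between genotypes, against 12% of all tested genes, and on the high-fat diet 6 did not, against 11.8%. Between diets 6 members did not overlap in wild type, against 15.7% of all genes, and 13 in knockout, against 21.7%. In knockout 6 of these were higher on the high-fat diet and 7 were lower; no test was made of these counts.

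Whether the diet effect differed between genotypes was asked with an interaction term, the diet difference in knockout minus that in wild type. Limma called 0 of the 39 members and 0% of all tested genes; 6 members, and 5.7% of all genes, were under an unadjusted p of 0.05. The largest terms were those of Cyp2c39 at 2.53 (SE 0.89, limma adjusted p = 0.827), Cyp2c38 at 1.85 (SE 0.78, 0.843) and Cyp2a5 at 0.84 (SE 0.38, 0.852). The largest negative ones were those of Cyp17a1 at -0.93 and Cyp2j9 at -0.52 (SE 0.24, limma adjusted p = 0.852). For Cyp2c37 the term was 0.53 (SE 0.27, 0.869) and for Cyp3a11 0.56 (SE 0.39, 0.895). All 7 tested CAR and PXR genes had a positive term (median 0.48), as did 49.5% of all tested genes. The dim Cyp2b10 was not tested. By its brightest probe set the diet difference was 0.66 in wild type and -0.08 in knockout, the opposite order. Its other probe sets gave 0.053 and -0.015, and 0.257 and 0.335. A difference in diet effect between the genotypes was thus not shown for any member, although Cyp2c37 and Cyp2j9 were called in knockout and not in wild type.

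Extracts of the same group differed widely in a few members. The SD within groups, pooled over the 4 groups, was above 0.5 log2 units in 6 of the 39 members, which is 15.4%, against 2.13% of all tested genes. They were Cyp17a1 (1.06), Cyp2c39 (0.95), Cyp39a1 (0.86), Cyp2c38 (0.84), Cyp4b1 (0.63) and Cyp26a1 (0.54). The median over members was 0.152, beside 0.153 over all genes, nearly the same. Some of these genes and some other members peaked in the same extracts. Cyp17a1, Cyp2a5, Cyp2c38, Cyp2g1, Cyp39a1 and Cyp4f15 were all highest in extract 3 of both low-fat groups and in extract 1 of both high-fat groups. This was the case for 6 of 39 members (15.4%) and for 221 of all tested genes (2.15%). The pattern was set by Cyp39a1, itself a member and counted here, so these shares are no fair comparison. Of the widely spread members, Cyp2c39, Cyp4b1 and Cyp26a1 did not share it. The pattern was noticed after the values had been seen and is a description of these extracts. No order or pairing by replicate number was assumed.

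**Figure D4:**
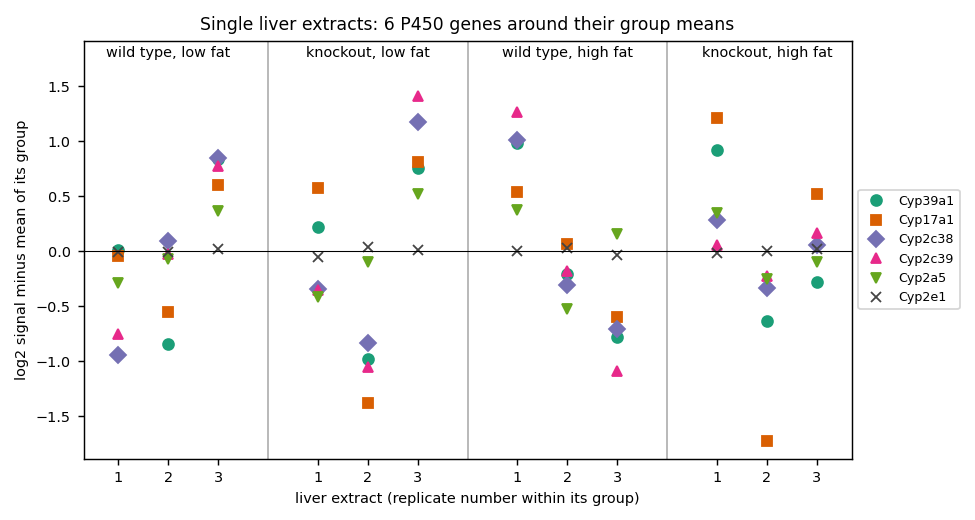
Log2 signal of 6 P450 genes in each liver extract minus the mean of its group (points), with the 4 groups side by side. Cyp39a1, Cyp17a1, Cyp2c38 and Cyp2a5 are all highest in extract 3 of the low-fat groups and extract 1 of the high-fat groups, while Cyp2e1 stays near 0 in all 12 extracts.

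Among partners and regulators of the P450 enzymes, genes were called for diet in knockout and on the mean of both genotypes, and none in the other comparisons. Of 13 tested genes for electron donors and haem supply, limma called 1 on the high-fat diet in knockout and 3 on the mean of both genotypes, beside 3.03% and 4.56% of all tested genes. Fdx1, the ferredoxin of mitochondrial P450s, rose by 0.20 on the mean (SE 0.04, adjusted p = 0.011, kept in all 12 fits) and by 0.31 in knockout (0.0117, lost at 0.0611 without knockout high-fat extract 2), Uros, an enzyme of haem synthesis, rose by 0.37 (0.0196) and Cyb5r3, the reductase of cytochrome b5, fell by 0.34 (0.0229). Por, the reductase of the microsomal P450s, was not analysed here. The calls of Uros and Cyb5r3 were lost in 3 and 5 of the 12 fits that left out an extract, at adjusted p of up to 0.0567 and 0.0612.

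Of 16 tested regulators, 2 were called in knockout and 2 on the mean of both genotypes, beside the same 3.03% and 4.56% of all genes. Nr1i3, the gene of CAR, read 9.58, 9.26 and 9.31 in knockout with low-fat and 10.24, 10.12 and 9.97 with high-fat feeding; wild-type extracts read 9.51, 9.81 and 10.01 with low-fat and 10.30, 9.97 and 9.88 with high-fat feeding. It rose by 0.72 in knockout (SE 0.14, limma adjusted p = 0.0192) and by 0.50 on the mean of both genotypes (SE 0.10, limma adjusted p = 0.0142). The rise in knockout lost its call without knockout low-fat extract 2, knockout high-fat extract 1 or knockout high-fat extract 2 (up to 0.0804), and the mean rise kept it in all 12 such fits. Hnf4a, the gene of HNF4 alpha, fell by 0.39 in knockout (SE 0.08, limma adjusted p = 0.0229), with values of 11.30, 11.44 and 11.22 with low-fat and 10.96, 10.93 and 10.92 with high-fat feeding. Its wild-type means were 11.004 and 11.024, so that the low-fat knockout group was the high one. That call was lost without knockout low-fat extract 1 or 2 or knockout high-fat extract 2 or 3 (up to 0.0878). Cebpa, another hepatocyte regulator, fell by 0.40 on the mean of both genotypes (limma adjusted p = 0.0229), a call lost in 4 of 12 such fits. Nr1i2, the gene of PXR, Ahr and Ppara were called in no comparison; for genotype, Nr1i2 differed by -0.35 on the mean of both diets (SE 0.12, limma adjusted p = 0.617) and Ahr by -0.41 with low-fat feeding (SE 0.30, limma adjusted p = 0.755). Ppara, the fatty acid receptor that drives Cyp4a genes, came closest for genotype on the low-fat diet, with 10.10, 10.54 and 10.27 in knockout and 10.70, 10.75 and 10.87 in wild type, a difference of -0.47 (SE 0.10, limma adjusted p = 0.222). The largest differences that passed no test were those of Bcl6, a male-biased repressor, at -1.92 between genotypes on low-fat feeding (SE 0.78, limma adjusted p = 0.542) and 2.44 in the interaction (0.852), and of Alas1, the first enzyme of haem synthesis, at 1.02 for diet in wild type (SE 0.54, 0.634).

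Of 36 tested enzymes and exporters that act after the P450s, 4 were called in knockout and 7 on the mean of both genotypes, beside 3.03% and 4.56% of all tested genes. Gstm6, Gstm3 and Gstm2, glutathione transferases of the mu class, fell by 1.02, 0.68 and 0.41 on the mean, and the carboxylesterase Ces2a fell by 0.38. Abcc3 and Abcg2, efflux pumps for conjugates and drugs, rose by 0.60 and 0.47, and the retinal dehydrogenase Aldh1a1 rose by 0.37. The calls of Gstm6, Ces2a, Abcc3 and Aldh1a1 held in all 12 fits that left out an extract, and those of Gstm2, Gstm3 and Abcg2 were lost in 10, 8 and 7 of them. In knockout alone Gstm6 fell by 1.09, Ces2a fell by 0.39, Aldh1a1 rose by 0.56 and Papss2, which makes the sulfate donor, rose by 0.565 (limma adjusted p = 0.05 after rounding, just under the threshold). The call of Papss2 held in 2 of 12 such fits and that of Ces2a in 3, while Gstm6 lost its call only without knockout high-fat extract 2 (0.0652) and Aldh1a1 kept it in all 12. The oestrogen sulfotransferase Sult1e1 had a large difference that passed no test, 1.002 on the mean (SE 0.49, limma adjusted p = 0.284). Of the 19 called changes of partners, regulators, enzymes and exporters, 8 kept their call without both macrophage-poor extracts. They were Gstm6 (0.0159) and Aldh1a1 (0.0495) in knockout, and Cyb5r3 (0.0247), Nr1i3 (0.0477), Gstm6 (0.00123), Ces2a (0.0412), Abcc3 (0.0355) and Aldh1a1 (0.0241) on the mean, by limma's adjusted p. The other 11 lost it, at adjusted p of 0.0618 to 0.2. The 39 P450 genes and these partner lists were compared by counts only, and nothing particular to either is claimed.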

How the data were processed

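Expression was measured in 12 mouse liver extracts, 3 in each of 4 groups, with a 1-colour array. The deposited values are log2 signals summarised by the authors using RMA (the submitters' processing notes); array medians show them to be normalized already, and no further scaling was applied. Probe sets annotated to 1 gene were kept, each gene was given its brightest probe set, and the 40% of genes with the lowest mean were left out, which left 10258. limma 3.58.1 in R 4.3.3 fitted the 4 group means with a variance trend (8 residual degrees of freedom, 7 contrasts, Benjamini-Hochberg adjustment, threshold 0.05). The fit was run on simulated data with independent noise in each gene, which checks the code and not the calls reported here. With 3 arrays per group the precision is limited.

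The P450 genes, lists and comparisons were chosen with earlier results of these data known. Named by rule are members past the threshold, the 3 largest differences in each direction per comparison, and Cyp3a11, Cyp2b10 and Cyp2c37; of the partner lists, genes past the threshold, the genes of PXR, CAR, AHR and PPAR alpha, and the 2 largest differences per list, of which only the largest are printed. Further members, such as Cyp2c50, Cyp4f14 and Cyp3a25, were named after their values were seen. Alternatives were other scaling, filters, probe-set rules, variance models, a replicate block and leaving out arrays. Promoters were searched and aligned with Python 3.11.15 and Biopython 1.88.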

Additional observations from a re-analysis of the deposited data

How the results depend on the processing

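The count of P450 genes called for genotype on either diet, for their mean, for diet in wild type and for the interaction was 0 under every alternative run. For diet in knockout the count of 2 became 1 with quantile normalization, with no filter on dim genes and with no variance trend. It was 0 with only the 2 groups compared and without the 2 arrays lowest in macrophage markers, and 4 at an adjusted p of 0.10. It was also 0 with 60% of genes left out as dim, but that filter removed Cyp2c37 and Cyp2j9, so they were not retested. Leaving out 1 array gave 0 to 4, and 4 without knockout low-fat extract 3 (Cyp2c37, Cyp2c38, Cyp2c39 and Cyp2j9). For diet on the mean of both genotypes the count of 3 became 1 with no variance trend, 8 at an adjusted p of 0.10 and 0 without the 2 arrays lowest in macrophage markers, and 1 to 4 when 1 array was left out. Deviations from the group means of the 18 same-numbered pairs of arrays correlated between -0.17 and 0.38, with 7 above 0.1. Those of differently numbered pairs in different groups ran from -0.45 to 0.25. The labels do not say that the numbers pair the arrays, and the main fit did not pair them. The replicate block gave 2 and 3 called members, with Cyp2c23 in place of Cyp2r1 on the mean of both genotypes (Cyp2r1 adjusted p = 0.0615). Over all genes the calls for diet in knockout, 311, ranged from 68 (only the 2 groups compared) to 655 (adjusted p of 0.10), and those on the mean, 468, from 256 to 921. Of 56 named changes under 1103 alternative values, 5 turned their sign, all with 1 array left out: Cyp2c37 for genotype on the low-fat diet (range -0.276 to 0.054), Cyp2c39 for genotype on the mean of both diets (-0.009 to 0.659) and Cyp39a1 for diet in wild type (-0.265 to 0.648). The cause of these changes was not tested. The dim probe sets of 23 members limit what can be said of them.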
